A study of Mus musculus with 2 samples.

Results

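Dividing microglia were singlets, droplets carrying 1 hashtag, in which the unique molecular identifiers (UMIs, 1 per captured RNA molecule) of Mki67, Top2a, Birc5, Ube2c, Nusap1, Prc1 and Hmmr summed to at least 4. There were 53 such cells among 7903 singlets, and the other 7850 singlets are called the other cells. The cells were chosen by the measured counts of these 7 genes, so the levels of those genes are given as a description with no test. All cells came from 1 droplet run of CD11b+ CD45+ Ly6G- CD206- cells sorted from perfused brains of 12 week old Cx3cr1CreERT2(Litt) Hetero mice. Each group carried the same allele, in which a tamoxifen-inducible Cre recombinase is made from the Cx3cr1 locus, a gene of microglia and other mononuclear phagocytes. No floxed target is named in the labels. Hashtags, antibody-borne barcodes, mark the 5 oil (vehicle) replicates, Oil1 and so on, and the 5 TAM (tamoxifen) replicates, treated for 4 weeks. The labels do not state that each hashtag is a separate mouse, so p-values take hashtags, not mice, as the replicates.

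The cells carried the label microglia in their RNA. P2ry12, a purinergic receptor of resting microglia, Tmem119, a microglial membrane protein, Cx3cr1, the fractalkine receptor, and Csf1r, the receptor on which microglia depend, each had a UMI in 53 of 53. In the other cells the shares were 99.0%, 94.8%, 98.7% and 99.6%. Siglech, a lectin of microglia, had a UMI in 52 of 53 and in 98.1% of the other cells. No UMI of 10 T and NK cell markers was found in any of the 53 cells. Of 10 markers of CNS-associated macrophages, Cd163, Lyve1, Pf4, F13a1, Cbr2, Ms4a7 and Cd209f were at 0, and Mrc1, which encodes the CD206 protein used to sort such cells away, had 28 UMIs in 14 cells. Mrc1 stood at 64.0 CPM (a gene's UMIs scaled to a fixed library total) in dividing cells and 10.5 CPM in the other cells. Of 10 monocyte markers, Ly6c2 and Ccr2 were at 0 and Plac8 had 22 UMIs in 8 cells. The part of these cell types in the results was not tested.

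Microglia renew themselves in the adult brain by slow local division, with little input from blood. A cell that enters the cycle first makes cyclins D and E and E2F factors, then the DNA replication machinery, and last the kinases, kinetochore proteins and spindle motors of mitosis. The chosen genes belong to that last wave. Mki67 encodes the Ki-67 antigen that coats mitotic chromosomes, and Top2a encodes topoisomerase II alpha, which untangles sister DNA. Birc5 encodes survivin of the chromosomal passenger complex and Ube2c an E2 enzyme of the anaphase-promoting complex. Nusap1, Prc1 and Hmmr encode proteins that bundle or organise spindle microtubules.

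Genes of this wave share short promoter elements, so 4 of the promoters are printed. The cell cycle genes homology region (CHR), searched as TTTGAA or TTCGAA on both strands, is bound by MuvB complexes, which repress these genes in resting cells and, with B-Myb and FoxM1, activate them in cycling ones. The CCAAT box, searched as CCAAT on both strands, is bound by NF-Y. The lines give the 120 bases before the RefSeq start site (GRCm38.p6), 5′ to 3′ on the gene's strand, with matches in capitals. They are the chosen genes with a CHR match in the 250 bases before a start. For Prc1, which has more than 1 start, the one with the match is shown.
Top2a: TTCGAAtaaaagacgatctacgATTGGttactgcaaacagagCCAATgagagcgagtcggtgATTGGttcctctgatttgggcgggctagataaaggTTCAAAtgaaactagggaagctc
Ube2c: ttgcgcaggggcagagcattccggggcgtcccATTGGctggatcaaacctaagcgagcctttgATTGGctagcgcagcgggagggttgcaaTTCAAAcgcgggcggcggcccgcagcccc
Prc1: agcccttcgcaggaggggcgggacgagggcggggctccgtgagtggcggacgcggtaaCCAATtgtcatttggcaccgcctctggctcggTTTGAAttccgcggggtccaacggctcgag
Mki67: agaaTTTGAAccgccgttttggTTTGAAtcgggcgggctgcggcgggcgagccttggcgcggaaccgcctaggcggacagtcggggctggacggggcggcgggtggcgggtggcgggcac
These windows lie at chr11:99024190-99024309 (minus strand) for Top2a, chr2:164769809-164769928 (plus) for Ube2c, chr7:80294356-80294475 (plus) for Prc1 and chr7:135716380-135716499 (minus) for Mki67. In the 250 bases before a start, 4 of the 7 genes held a CHR match, against 19.6% of 27025 genes with a promoter entry, and 5 of 7 held a CCAAT match, against 37.5%. Among lists of genes by function, CHR matches were found in 9 of 21 matched genes of the spindle and cytokinesis and in 2 of 16 of the kinetochore. They were found in 10 of 23 of a list of chromatin, nuclear lamina and tubulin genes and in 7 of 33 of DNA replication. CCAAT matches were found in 15 of 17 matched genes of mitotic kinases and cyclins A and B, and also in 9 of 11 of antigen presentation, a list outside the cycle. A match is a description of the letters, not evidence of binding.

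Dividing cells were more frequent in TAM than in oil hashtags. In oil hashtags they were 1 of 706 singlets in Oil1 (0.142%), 2 of 644 in Oil2 (0.311%), 1 of 910 in Oil3 (0.110%), 2 of 794 in Oil4 (0.252%) and 3 of 838 in Oil5 (0.358%). In TAM hashtags they were 2 of 869 in TAM1 (0.230%), 5 of 619 in TAM2 (0.808%), 14 of 935 in TAM3 (1.5%), 13 of 809 in TAM4 (1.61%) and 10 of 779 in TAM5 (1.28%). TAM1 lay within the oil range, and the other 4 TAM hashtags lay above every oil hashtag. The mean share was 0.234% ± 0.107 (SD, n = 5 hashtags) with oil and 1.09% ± 0.568 (SD, n = 5) with TAM. The difference of 0.851 percentage points gave p = 0.0317 in a two-sided exact permutation test, whose smallest possible p is 0.00794. Pooled over hashtags, the share was 9 of 3892 with oil (exact 95% interval 0.106% to 0.439%) and 44 of 4011 with TAM (0.798% to 1.47%). These intervals cover counting error only.

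**Figure D1:**
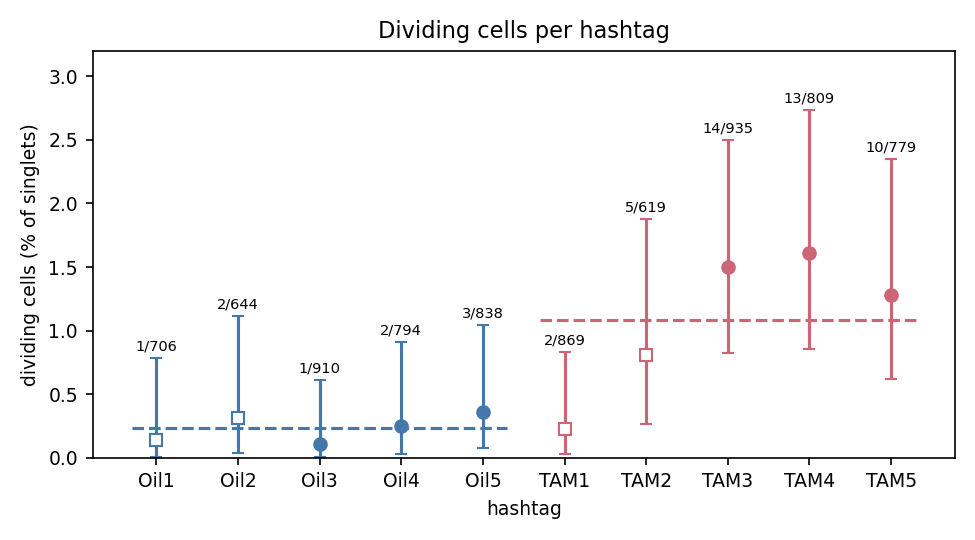
Dividing cells as a percent of singlets in each hashtag, with exact 95% binomial intervals and the counts above them. Dashed lines are the treatment means, and open squares mark the 4 hashtags whose Xist and Y-linked RNA read as male. TAM2 to TAM5 lie above the oil hashtags, while TAM1 does not.

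The share rested on few cells. Leaving out Oil1, Oil3, TAM2, TAM3, TAM4 or TAM5 in turn gave p = 0.0635 in the exact permutation test, with differences of 0.720 to 0.920 points. Sex, read from Xist and Y-linked genes, was balanced between the treatments, with 2 male and 3 female hashtags in each. In female hashtags (Oil3 to Oil5 and TAM3 to TAM5) the mean rose from 0.240% to 1.46%, a difference of 1.22 points with p = 0.1, the smallest that the exact permutation test of 3 against 3 can give. In male hashtags (Oil1, Oil2, TAM1 and TAM2) it was 0.226% with oil and 0.519% with TAM, a difference of 0.293 points with an exact permutation p of 0.667. The female minus male difference of these effects, 0.930 points, gave an exact permutation p of 0.1. The mean log2 CPM of 25 immediate early genes, which dissociation of tissue can raise, ran from 4.78 to 6.34 in oil hashtags and from 3.78 to 4.72 in TAM hashtags, without overlap. Its part in the share was not tested. Without the 3 oil hashtags highest in those genes the difference was 0.780 points, with an exact permutation p of 0.286.

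Most singlets held none of the 7 RNAs, and the dividing cells spread over a wide range above the threshold. There were 7738 singlets with no UMI of the 7 genes, 94 with 1, 13 with 2 and 5 with 3. Just inside the threshold, 2 cells had a count of 4 and 7 cells a count of 5. The 53 cells ranged from 4 to 122 UMIs with a median of 19. All 7 genes were detected in 19 cells, at least 4 genes in 37, and a single gene in 2. Mki67 was found in 52 of 53 cells, Birc5 and Hmmr in 39, Top2a in 38, Prc1 in 36, Nusap1 in 32 and Ube2c in 26. Between 86.1% (Birc5) and 96.8% (Top2a) of all singlets' UMIs of each gene lay in these 53 cells.

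Dividing cells held more RNA than the other cells. Their median was 8203 gene UMIs and 3615 genes per cell, against 4909 and 2417, with 0.983% and 0.826% of UMIs from mitochondrial genes. A threshold of 4 raw UMIs is reached more easily in deeper cells, which can raise the UMI and gene numbers, an effect not tested here. A doublet can also raise both numbers, and droplets with RNA of several hashtags had been removed. The 1737 such barcodes imply about 193 doublets of cells with the same hashtag, which remain. UMIs of the assigned hashtag, which the choice of cells did not use, had medians in dividing and other cells of 223 and 143 in TAM2, 248.5 and 168 in TAM3, 227 and 162 in TAM4, and 144.5 and 195 in TAM5. They were higher in 3 of these 4 hashtags and lower in TAM5. The mean log2 ratio was 0.32, and an exact sign-flip permutation test over the 4 hashtags gave p = 0.25, where 0.125 is the smallest possible.

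Scored with published S and G2/M gene lists from which the 7 genes were removed, no dividing cell was called G1. The calls were 14 S and 39 G2/M, a G2/M share of 73.6% (exact 95% interval 59.7% to 84.7%). Of the 9 oil cells 6 were called G2/M, and of the 44 TAM cells 33. In the other cells 66.5% were called G1, 21.2% S and 12.3% G2/M. A call of S or G2/M needs only a score above 0, so these shares do not count cycling cells. Median S and G2/M scores were -0.034 and -0.049 in the other cells and 0.362 and 0.664 in dividing cells. With every cell thinned to 3000 UMIs, which left out 2 dividing and 626 other cells, the G2/M share was 72.5% in dividing and 10.1% in other cells. The remaining genes of these lists follow the chosen ones through the cycle, so the calls describe the cells and do not test them.

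**Figure D2:**
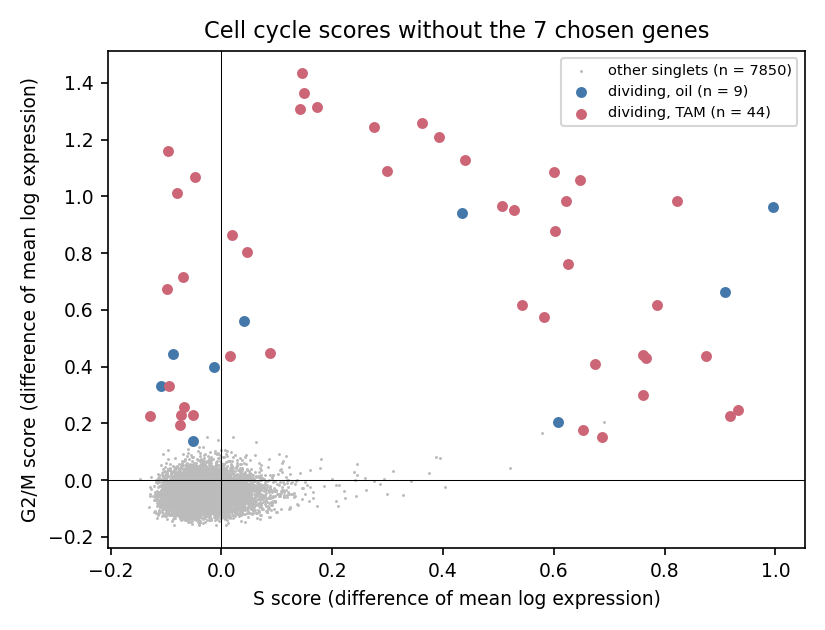
S score against G2/M score of each singlet, both as differences of mean log expression computed without the 7 chosen genes. The 53 dividing cells, coloured by treatment, form an arc from high S scores to high G2/M scores and back to low values, and the 7850 other cells lie near 0.

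The 53 cells formed 3 sets when the phase call was set beside the amounts of RNA. The line at 25 UMIs of the 7 genes, which fell in a gap among the G2/M calls, was drawn after the values were seen, so the sets are described without a test. The first set, the 14 S calls, had a median of 60 UMIs of 39 DNA replication genes per cell (range 47 to 89) and 13 of the chosen genes. The second, 21 G2/M calls with 38 to 122 UMIs of the chosen genes, had a median of 31 replication UMIs (1 to 100) and 10505 gene UMIs in all. The third, 18 G2/M calls with 4 to 21 UMIs of the chosen genes, had 0 to 4 replication UMIs and a median of 6233 gene UMIs. Oil cells were 3 of the first, 1 of the second and 5 of the third set.

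**Figure D3:**
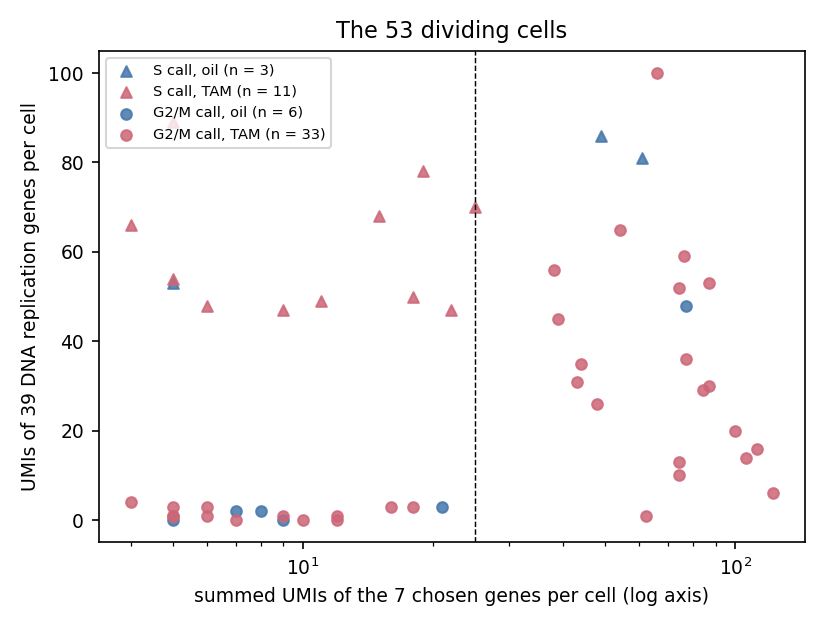
Summed UMIs of the 7 chosen genes (log axis) against UMIs of 39 DNA replication genes in each of the 53 dividing cells, with the phase call as the symbol and the treatment as the colour. The dashed line at 25 parts the G2/M calls into 21 cells with 38 UMIs or more and 18 cells with 21 or fewer, all 18 near the bottom of the plot.

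The third set differed from the second in which chosen genes were found. The 2 sets were split on the sum of these same genes, so their lower detection and level in the third is in part fixed by the split. The third set was also shallower, with a median of 6233 gene UMIs per cell against 10505. Mki67 was found in 18 of 18 of its cells, Hmmr in 13 and Birc5 in 11, while Prc1 and Ube2c were each found in 5 and Top2a and Nusap1 in 4. In the second and the third set the level of Mki67 was 1863 and 699 CPM, that of Hmmr 670 and 300 CPM, that of Birc5 467 and 245 CPM and that of Top2a 1892 and 72.6 CPM. In the second set Top2a, Birc5, Nusap1 and Prc1 were found in 21 of 21. Cdkn2c, which encodes the CDK4 and CDK6 inhibitor p18, stood at 462 CPM in the second set, 104 CPM in the first and 27.2 CPM in the third. The 22 homeostatic microglial genes summed to 48470 CPM in the first set, 43884 CPM in the second and 72531 CPM in the third, against 71368 CPM in the other cells. Ifi27l2a, an interferon-inducible gene, ran the other way from the replication genes, with UMIs in 2 of 14, 7 of 21 and 15 of 18 cells.

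Genes were then compared between dividing and other cells within hashtags, by edgeR's quasi-likelihood test on counts summed per hashtag, for TAM2 to TAM5, which hold at least 5 dividing cells each. Values of the fits are CPM on library totals scaled by TMM within each fit, so they approximate shares of a cell's RNA. The same cells can thus have somewhat different CPM in the later fits between treatments. CPM given for markers, for the sets of dividing cells and for pooled cells of a treatment are not scaled by TMM. Of 9952 genes tested, 17.8% passed an adjusted p of 0.05, with 896 higher and 880 lower, and 11.9% were higher and 23.5% lower in all 4 hashtags. With DESeq2, 1197 genes passed, of which 63.8% were higher, against 50.5% here. Members of the cell cycle lists belong to the programme that chose the cells and are given with no p.

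Genes of entry into the cycle were mixed. In this list 12 of 16 tested members were higher in all 4 hashtags and 3 were lower in all 4. Ccne2, cyclin E2, which drives the start of S phase, stood at 158 CPM ± 70.1 (SD, n = 4) against 3.18 CPM ± 0.824. E2f8, a repressor of the E2F family, stood at 113 CPM ± 56.1 against 0.265 CPM ± 0.225. Ccnd3, a D cyclin that binds CDK4 and CDK6, was at 46.3 CPM in TAM2, 247 CPM in TAM3, 215 CPM in TAM4 and 175 CPM in TAM5 in dividing cells. In the other cells of the same hashtags Ccnd3 was at 1001, 982, 904 and 989 CPM, so the 2 classes did not overlap. E2f3 and Cdk6, at 250 CPM ± 67.8 and 230 CPM ± 154, stood near the other cells' 174 CPM ± 11 and 183 CPM ± 14.1.

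Replication genes were higher almost throughout. Of 37 tested members 36 were higher in all 4 hashtags, with a median log2 fold change of 3.63. Clspn, the checkpoint adaptor claspin, stood at 267 CPM ± 32.7 (SD, n = 4) against 1.40 CPM ± 0.717. Pola1, the catalytic subunit of DNA polymerase alpha, stood at 259 CPM ± 50.7 against 21.4 CPM ± 2.62. Pcna, the sliding clamp, and Tyms, thymidylate synthase, were highest in TAM2, at 416 and 439 CPM, and lay between 133 and 263 CPM in the other 3 hashtags. Slbp, which binds histone mRNA, followed at 532 CPM in TAM2 and 159 to 283 CPM elsewhere.

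Mitotic genes differed most. Of mitotic kinases and cyclins A and B 19 of 20 tested were higher in all 4 hashtags, of kinetochore genes 17 of 18, and of spindle motors and cytokinesis genes 25 of 25, with median log2 fold changes of 7.53, 7.08 and 7.88. Cdk1, the kinase that starts mitosis, was at 231 CPM in TAM2, 276 in TAM3, 207 in TAM4 and 296 in TAM5, against 2.17, 3.15, 4.38 and 2.58 CPM in other cells. Cenpf, a late kinetochore protein, was at 278 CPM in TAM2 and 539 to 704 CPM in the other 3, against 4.33 to 8.75 CPM. Kif11, the motor that parts the spindle poles, stood at 335 CPM ± 128 (SD, n = 4) against 0.333 CPM ± 0.348, and Kif23, a motor of the cleavage furrow, at 283 CPM ± 38.6 against 0.162 CPM ± 0.189. Pttg1, securin, named after its values were seen, was the member of the kinase and cyclin list that was not higher in all 4, at 22.4 CPM ± 20.5 against 31.8 CPM ± 3.03.

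Genes of the chromatin list were mostly higher, some from an already high level. This list also holds condensin, nuclear lamina and tubulin genes, Stmn1 and Ran. Of 28 tested members 25 were higher in all 4 hashtags. H2afz, a histone H2A variant, stood at 1787 CPM ± 227 (SD, n = 4) against 245 CPM ± 9.30, and Hmgb2, a chromatin architectural protein, at 1394 CPM ± 52.8 against 55.6 CPM ± 4.12. Stmn1, the microtubule destabiliser stathmin, ran from 971 CPM in TAM2 to 1589 CPM in TAM5, against 26.4 to 37.6 CPM. Tuba1a, an alpha tubulin, was the member lower in all 4 hashtags, at 52.2 CPM ± 10.1 against 87.1 CPM ± 6.80.

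Inhibitors of the cycle differed among themselves. Of 19 tested members of the list of inhibitors and p53 targets 11 were higher and 1 lower at an adjusted p of 0.05, against 9% and 8.84% of all genes tested. Some members may vary with the cycle itself, as Cdkn2c did with the chosen genes across the sets above. The choice of cells can then raise them, and the count is read as a description. Cdkn1a (chromosome 17 from 29090976 to 29100727, GRCm38, plus strand) encodes p21, an inhibitor of cyclin-dependent kinases that p53 induces. It was at 1180 CPM in TAM2, 990 in TAM3, 979 in TAM4 and 916 in TAM5 in dividing cells, and at 29.2, 85.9, 96.0 and 63.4 CPM in the other cells. The classes did not overlap, and the log2 fold change was 3.87 ± 0.16 (SE), with an adjusted p of 8.93e-124 in edgeR's quasi-likelihood test. It was 2.68e-40 with DESeq2 and 1.02e-15 in edgeR without the hashtag block. The size of this p thus depends on the model and is no plain measure of the spread of Cdkn1a between 4 hashtags. Cdkn2c rose by 5.64 ± 0.35 and Cdkn2d, which encodes p19, by 4.24 ± 0.40 on the log2 scale, each higher in 4 of 4 hashtags. Cdkn1b, which encodes p27, stood at 71.1 CPM ± 26 (SD, n = 4) against 72.2 CPM ± 5.78 (adjusted p = 0.987, edgeR). Cdkn1c, which encodes p57, was the member that fell, with no UMI in dividing cells against 15.1 CPM ± 1.35 in the other cells (adjusted p = 0.0339, edgeR). With 3 counts as the floor over the dividing cells, 8.82 CPM without TMM scaling, the size of this fall is uncertain and may be small. Cdkn1b and Cdkn1c were named after their values were seen.

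Cdkn1a was also found in most dividing cells with oil. A UMI was found in 7 of 9 dividing oil cells and 36 of 44 dividing TAM cells, and the levels over all such cells were 1044 CPM with oil and 963 CPM with TAM. In other cells 5.15% held a UMI with oil and 11.1% with TAM, at 17.4 and 59.7 CPM. Among the sets of dividing cells, Cdkn1a was found in 9 of 14 S calls, 20 of 21 G2/M calls of the second set and 14 of 18 of the third, at 700, 1264 and 717 CPM. The 9 oil cells are too few per hashtag for a test.

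**Figure D4:**
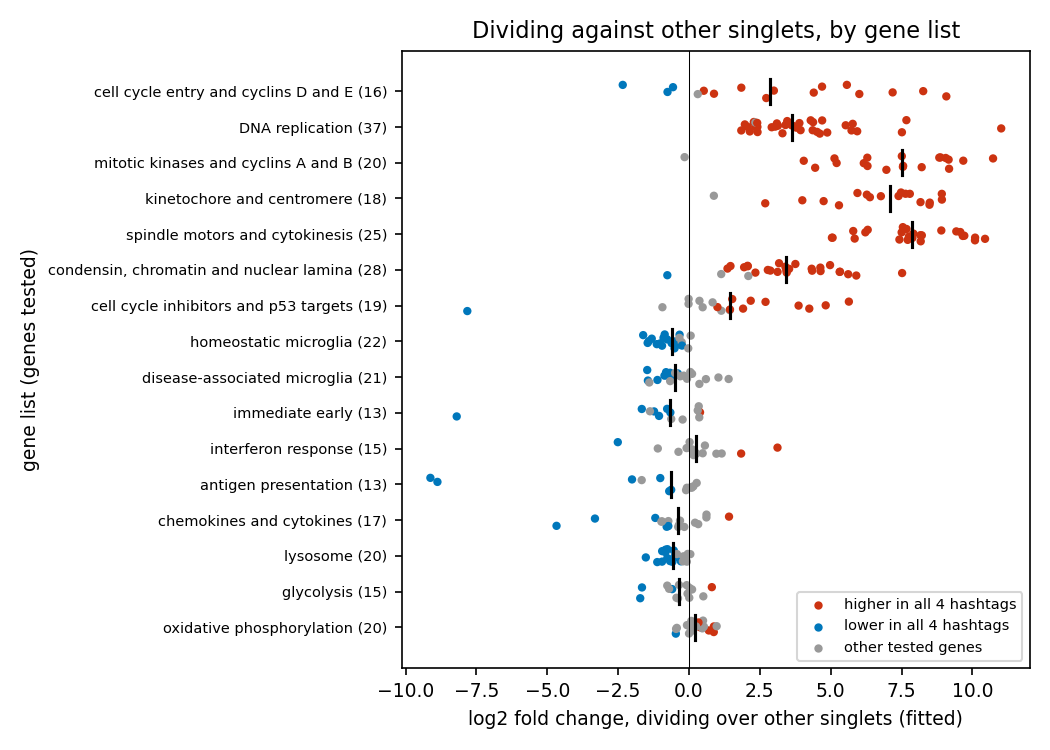
Fitted log2 fold change between dividing and other cells for each tested gene, by list, with the number tested in brackets and a black bar at the median. Red points were higher and blue points lower in all 4 hashtags. Cell cycle lists lie to the right, and the homeostatic and lysosomal lists lie mostly to the left of 0.

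Homeostatic genes of microglia took a smaller share of the RNA of dividing cells. Of 22 tested 15 fell and none rose, with 7 not passing, and the list's median log2 fold change was -0.59, against -0.14 over all genes tested. Gpr34, a lysophospholipid receptor, was at 578 CPM in TAM2, 876 in TAM3, 716 in TAM4 and 1131 in TAM5, against 1935 to 2125 CPM in other cells. Siglech fell by 1.14 ± 0.15 on the log2 scale, with an adjusted p of 3.29e-13 in edgeR. Per cell the amount was not smaller, since the list's median was 409 UMIs in dividing cells and 346 in other cells.

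Lysosomal genes moved in the same direction. Of 20 tested 13 fell and none rose, with a median of -0.56. The list summed to 9087 CPM in the first set of dividing cells, 8033 CPM in the second and 12825 CPM in the third, against 13101 CPM in the other cells. The third set thus stood near the other cells. Ctss, cathepsin S, was at 1711 CPM in TAM2 and 2047 to 2109 CPM in the other 3, against 3658 to 4120 CPM. Of 21 tested disease-associated genes 8 fell and 1 rose, and Apoe, which encodes apolipoprotein E, had a log2 fold change of -1.47 ± 0.19 with an adjusted p of 1.40e-13 in edgeR. Per cell, medians of the lysosomal list were 76 UMIs in dividing and 63 in other cells.

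Immune and metabolic lists were mixed, and are read beside the 9% of all genes tested that rose and the 8.84% that fell. Of 13 antigen presentation genes 5 fell, and the class II genes H2-Aa and H2-Eb1 had no UMI among the 339966 of the dividing cells of these hashtags, against 42.7 and 35.8 CPM in other cells. With 3 counts as the floor over these cells, 8.82 CPM without TMM scaling, these genes were roughly 4.84-fold and 4.06-fold lower or more. Without the hashtag block these calls, and that of Ccl4, were lost, with adjusted p of 0.132, 0.155 and 0.112 in edgeR. Of 17 chemokine and cytokine genes 3 fell and 1 rose. Ccl4 had 1 UMI in dividing cells, and Ccl12, a monocyte attractant, stood at 182 CPM ± 74.2 (SD, n = 4) against 70.0 CPM ± 15.7 (adjusted p = 1.57e-06, edgeR). Of 15 interferon response genes 3 rose and 1 fell, led by Ifi27l2a at 92.5 CPM in TAM2, 562 in TAM3, 287 in TAM4 and 323 in TAM5, against 32.1 to 44.1 CPM. Of 15 glycolysis genes 1 rose and 3 fell, with Hk2, hexokinase 2, at 72.9 CPM ± 13.3 against 237 CPM ± 5.67, and Gapdh at 465 CPM ± 89.8 against 267 CPM ± 15.7. Of 20 oxidative phosphorylation genes 2 rose, a share near that of all genes, Cox7a2 by 0.87 ± 0.24 and Atp5j by 0.70 ± 0.22 on the log2 scale, and none fell. The call of Cox7a2 was lost at a threshold of 6 UMIs (adjusted p = 0.123) and that of Atp5j without TAM3 (0.129) or TAM5 (0.0974), by edgeR. Of 13 immediate early genes 4 fell, among them Rhob, which encodes a small GTPase, by 1.23 ± 0.18 on the log2 scale.

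Outside all lists, genes with the smallest p values included further cell cycle genes. Lockd, a long noncoding RNA next to Cdkn1b, stood at 606 CPM ± 153 (SD, n = 4) against 0.433 CPM ± 0.383. Hist1h1b, a linker histone, stood at 513 CPM ± 133 against 0.829 CPM ± 0.256, Diaph3, a formin, at 519 CPM ± 95.5 against 6.79 CPM ± 2.94, and Pclaf, a PCNA-binding factor, at 256 CPM ± 76.4 against 1.72 CPM ± 0.394. Histone genes are near-identical copies, so the split of reads between Hist1h2ap and Hist1h2ae is uncertain. Sdk1, which encodes a cell adhesion protein of the immunoglobulin superfamily, was at 1850 CPM in TAM2, 1637 in TAM3, 1632 in TAM4 and 1077 in TAM5, against 156 to 295 CPM in other cells. In the sets of dividing cells Sdk1 had 977 CPM in the S calls, 2651 CPM in the second and 209 CPM in the third set. Among genes that fell were Abca9, a transporter, by 2.06 ± 0.21, Fcgr3, an Fc receptor for IgG, by 1.90 ± 0.19, and Csf3r, the G-CSF receptor, by 1.89 ± 0.23 on the log2 scale.

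The last comparison set TAM against oil with and without the dividing cells. Over all singlets edgeR's quasi-likelihood test on counts summed per hashtag called 4.62% of 11238 genes, 1.72% higher and 2.9% lower with TAM. Of these 37.2% were higher, and with library size alone in place of TMM scaling 58.2% were. Genes whose hashtags did not overlap between treatments were 2.07% higher and 3.14% lower. Among cell cycle genes 29 of 106 tested were higher and 4 lower. The low-count filter left out many others, so that 12 of 25 spindle genes and 6 of 22 of the kinase and cyclin list were tested. A gene can pass this filter through the TAM hashtags where it is high, as Kif23 with 15 UMIs in oil and 119 in TAM. The share of 29 in 106 is thus read as a description. These 29 were 4 of the chosen genes, whose calls rest on the counts that chose the cells, 8 of the spindle list, 5 of the kinetochore, 4 of the chromatin, 3 of the entry, 3 of the replication and 2 of the kinase and cyclin list.

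Mki67 (chromosome 7 from 135689784 to 135716361, GRCm38, minus strand) is one of the genes that chose the cells, and 95.3% of its UMIs lay in them, so its level is a description with no test. Over all singlets it was at 7.37, 7.14, 0.668, 2.82 and 10.3 CPM in Oil1 to Oil5 and 7.13, 10.9, 34.2, 44.3 and 19.6 CPM in TAM1 to TAM5. TAM1 lay within the oil range and the other TAM hashtags above it.

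Top2a, with 96.8% of its UMIs in the chosen cells, was at 4.54, 6.52, 0.891, 0.256 and 4.65 CPM in Oil1 to Oil5 and 6.44, 13.9, 26.5, 40.2 and 20.9 CPM in TAM1 to TAM5. TAM1 was just below Oil2. Without the dividing cells, 16 UMIs of Top2a were left, 1 in oil and 15 in TAM.

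Without the dividing cells 4.19% of 11155 genes were called, 1.52% higher and 2.66% lower with TAM, and fewer cell cycle genes were among them. Of the 29 genes, 10 still had the counts to be tested, and 2 of these, Ccnd3 and E2f3, passed. The call of E2f3, a log2 fold change of 0.21 (adjusted p = 0.0416, edgeR), was lost when any 1 hashtag other than Oil4 or TAM4 was left out, with adjusted p of 0.0532 to 0.120. The median log2 fold change of the 29 was 1.69 over all singlets and 0.45 without the dividing cells, where the 19 genes below the low-count filter come from a fit without it, and 26 of 29 stayed above 0. In that unfiltered fit E2f1 and Cit, citron kinase, passed with adjusted p of 0.0109 and 0.0330. For 17 of the 29 genes at least 50% of all UMIs lay in the 53 dividing cells. Kif23 went from a log2 fold change of 2.85 ± 0.48 to -0.67 ± 0.97, Knl1, a kinetochore scaffold, from 2.13 ± 0.46 to -0.16 ± 0.59, and H2afx, the histone of DNA damage foci, from 0.64 ± 0.15 to 0.01 ± 0.15. The cells left out were chosen for high counts of a set that includes 4 of the 29 genes and belongs to the same programme. A fall of the 29 without them is thus in part fixed by the choice. The 2 fits also share nearly all cells, so these values stand side by side with no test between them.

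**Figure D5:**
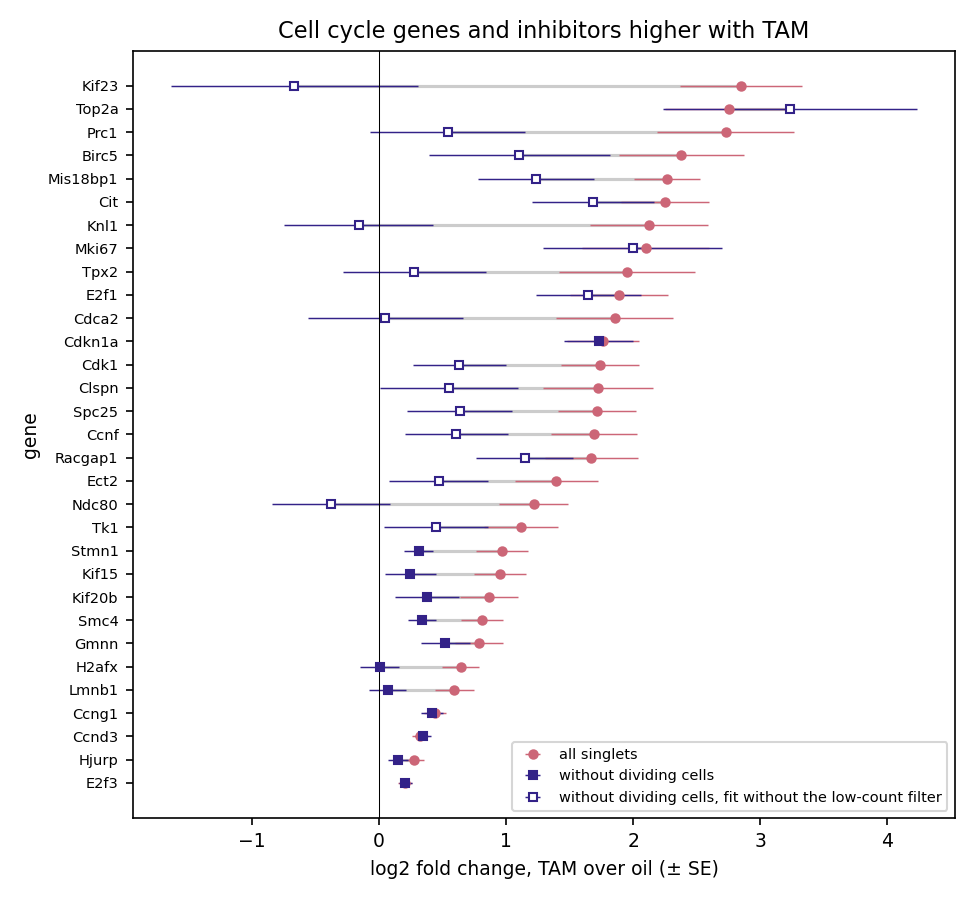
Log2 fold change between TAM and oil (± SE) of the 29 cell cycle genes and 2 inhibitor genes called higher over all singlets, with (circles) and without (squares) the 53 dividing cells. Open squares come from a fit without the low-count filter, and Cdkn1a, Ccng1, Ccnd3 and E2f3 have the pairs of points that nearly coincide.

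Cdkn1a stayed higher with TAM in cells that were not dividing. In the other cells it was at 19.6, 14.9, 17.7, 16.9 and 18.5 CPM in Oil1 to Oil5 and 33.0, 27.1, 79.9, 88.7 and 58.4 CPM in TAM1 to TAM5, without overlap. The log2 fold change was 1.73 ± 0.27 (SE, adjusted p = 0.00441, edgeR) without and 1.76 ± 0.28 (adjusted p = 0.00480) with the dividing cells. Ccng1, cyclin G1, another p53 target, rose by 0.42 ± 0.09 without and 0.44 ± 0.08 with them. Gadd45g, a growth arrest gene, fell by 0.78 ± 0.14 in both.

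Over all singlets 4 of 106 cell cycle genes were lower with TAM, beside 2.9% of all genes. Pcna was at 63.4, 62.2, 57.4, 58.6 and 36.7 CPM in Oil1 to Oil5 and 40.9, 33.8, 35.4, 31.1 and 30.4 CPM in TAM1 to TAM5 in the other cells. Oil5 lay within the TAM range, and the log2 fold change of Pcna was -0.69 ± 0.13 (SE, adjusted p = 0.00742, edgeR). Ptma, Hmgb1 and Tuba1a also fell, with and without the dividing cells. Hmgb2 and Ran, a nuclear transport GTPase, passed without them, with log2 fold changes of -0.40 ± 0.10 (adjusted p = 0.0384) and -0.30 ± 0.07 (adjusted p = 0.0313, edgeR), and had 0.06 (adjusted p = 0.848) and -0.22 (adjusted p = 0.0828) over all singlets. The immediate early level differs between the treatments without overlap, and with it as a covariate 1 of 28 named calls over all singlets held, that of Ccnd3, as with the hashtag number as a covariate. For Cdkn1a in the other cells these fits gave log2 fold changes of 0.76 (adjusted p = 0.495) and 0.70 (adjusted p = 0.715).

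Few other cells carried as many replication UMIs as the median dividing cell. The median dividing cell held 29 replication UMIs, and 1 of 3883 other cells with oil and 8 of 3967 with TAM held as many. The 18 dividing cells of the third set held 0 to 4 and do not reach this level either. These are raw counts, and dividing cells were deeper, with medians of 8203 and 4909 gene UMIs.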

How the data were processed

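Gene and hashtag UMI counts were deposited in 1 matrix from 1 run, so no libraries share barcodes. Per the file headers, the deposited counts come from Cell Ranger 7.0.0, mapped to mm10, per the submitters' processing notes; the annotation is not given in the sources used here. Barcodes with at least 500 genes, 1000 gene UMIs and at most 10% mitochondrial UMIs were kept (9760 of 9975). Hashtags were assigned with Seurat 5.3.0 HTODemux (CLR, quantile 0.99), giving 8055 singlets, 1737 doublets and 183 negatives before these filters; 7903 singlets remained. Median gene UMIs per hashtag ran from 4806 to 5050. No doublet caller was run beyond hashtags. The members and gene lists were chosen with earlier results of these data known. Raw counts were summed per hashtag and tested with edgeR 4.0.16 (TMM, filterByExpr, quasi-likelihood, Benjamini-Hochberg over all genes, hashtag as block for dividing against other cells); DESeq2 1.42.0 was an alternative. Phases came from scanpy 1.11.5. On simulated counts, the test of dividing against other cells recovered 55% of 2-fold and 91% of 4-fold changes (9722 genes), that of TAM against oil 100% of both (11252 genes). The changes were set only in well-expressed genes, with a fixed spread for all genes and hashtags that differed in depth alone. Recovery of weakly expressed genes, or at the spread of the real hashtags, was not measured and can be lower. Named genes were the 7 chosen genes, Cdkn1a, the highest in CPM of each cell cycle list, and the smallest p values of each other list, outside all lists and between treatments. Promoters were matched by symbol to RefSeq.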

Additional observations from a re-analysis of the deposited data

Results flagged for a closer look

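Among 148 groups of 4 or 5 hashtag values, 11 had 1 hashtag far from the others, and chance gives about 1 in 20. Over all singlets Ccnd3 was low in TAM4 (811 CPM, others 893 to 919), Pcna was low in Oil5 (37.0 CPM, others 58.6 to 66.3), Gmnn, which encodes the licensing inhibitor geminin, was low in Oil2 (3.10 CPM, others 4.54 to 5.12) and Ccng1 was low in TAM2 (28.2 CPM, others 32.2 to 33.8). Without the dividing cells the same hashtags stood apart for Ccnd3 (836 CPM), Pcna (36.7 CPM) and Gmnn (3.11 CPM). In the log2 ratio of dividing to other cells, with 1 CPM added to both, Esco2, a cohesin acetyltransferase, was lower in TAM5 (7.48, others 8.09 to 8.21) and Neil3, a DNA glycosylase, was lower in TAM4 (6.36, others 7.86 to 8.08). Atp8a2, a phospholipid flippase, was lower in TAM2 (-3.56, others -2.0 to -1.79), and so was Csf3r (-8.90, others -2.56 to -1.33), which had no UMI in the 5 dividing cells of TAM2.

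Barcodes with several hashtags, which entered no comparison, also held cells with at least 4 UMIs of the 7 genes. They were 11 of 1716 (0.641%, exact 95% interval 0.320% to 1.14%), against 53 of 7903 singlets (0.671%). Among barcodes with no hashtag there were 0 of 141, which allows a share of up to 2.13% when 3 counts are taken as the limit of a count of 0, and up to 2.58% by the exact 95% interval.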

How the results depend on the processing

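Counting thresholds of 2 to 8 UMIs, scaled or thinned counts, other hashtag quantiles and a restriction to cells with microglial markers left the higher share with TAM past the threshold. It was not passed in female hashtags alone (1.22 points), in male ones (0.293) or without the 3 oil hashtags highest in immediate early RNA (0.780). These subsets hold too few hashtags for the exact permutation test to pass the threshold at any values, so they do not decide. Leaving out 1 hashtag gave 0.720 to 1.06 points. The threshold was not passed without Oil1, Oil3, TAM2, TAM3, TAM4 or TAM5 (p = 0.0635 each, exact permutation test). Genes called between dividing and other cells ranged from 1172 (without TAM4) to 1793 when 1 hashtag was left out, of the 1776 reported, and came to 2088 with no replicate block. Between treatments, over all singlets and without the dividing cells, the calls were 519 and 467, and they were 851 and 719 with no filter, 886 and 808 with sex as a covariate, 38 and 38 with hashtag order added, 77 and 98 with immediate early RNA added, and 259 to 683 and 199 to 557 when 1 hashtag was left out. Without oil replicate 2 they were 335 and 254, without oil replicate 3 263 and 199, without TAM replicate 3 295 and 247, without TAM replicate 4 259 and 231, and without TAM replicate 5 266 and 210. The cause was not tested. With hashtag order added, the log2 fold changes of Pcna (0.054) and Ptma (0.044 over all singlets and 0.036 without the dividing cells) changed direction. A replicate block by the number in the hashtag name gave 904 and 824 calls; same-numbered hashtags correlated at 0.330, 0.165, 0.077, 0.120 and 0.109, so the numbers were not taken as pairs, and 3 of 5 correlated best with their own number.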
